A study of Homo sapiens with 6 samples.

Results

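The genes examined here encode the folding, disulfide bonding and degradation machinery of the endoplasmic reticulum (ER) and the sensors that control it. They are 38 genes of the 63086 in the table, listed by symbol and found through their Ensembl identifiers, and all 38 had enough counts to be tested. They fell into 14 chaperones and helpers, 9 disulfide isomerases and oxidases, 10 degradation genes, 4 sensors and transcription factors, and the translocon subunit SEC61B. The cells were HEK293T, an established human embryonic kidney line that carries the SV40 large T antigen. Supplemented cells (100Q) were depleted cells given queuine for 24 hours, at 100 nM by the sample characteristics and 1 µM by the treatment protocol. Depleted cells (0Q) were kept without added queuine, and both groups were grown in medium with dialyzed serum. Each group had 3 messenger RNA libraries, made by a multiplexed method that the labels call MSR-seq.

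Secreted and membrane proteins enter the ER through the Sec61 channel, where chaperones of the Hsp70 and Hsp90 type, lectins and disulfide isomerases fold them. Chains that fail to fold are sent back to the cytosol and destroyed. When unfolded chains build up, the sensors ATF6, IRE1 (ERN1) and PERK (EIF2AK3) start the unfolded protein response, in which ATF6 and spliced XBP1 raise transcription of chaperone and degradation genes. Queuosine is made from queuine at the wobble base of tRNAs that carry aspartate, asparagine, histidine and tyrosine. Earlier work on other cells linked its loss to ER stress, and the comparison asks whether these genes differ in messenger RNA between cells with and without queuine.

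Total estimated counts were 4023956 to 11398835 for a 100Q library and 7264638 to 8035251 for a 0Q library. On the first principal component (32.1% of the variance) 100Q replicate 2 lay far from the other 5 libraries, and on the second (22.8%) 100Q replicate 1 did. All 7 genes listed as markers of HEK293T were detected. Their summed levels were 980 to 1107 CPM (counts scaled to the library total and its TMM factor) in 100Q and 1119 to 1146 CPM in 0Q. VIM made up most of each sum, at 675 to 746 CPM in 100Q and 738 to 784 CPM in 0Q. PAX2 and LHX1 were low, at 1.72 to 7.89 and 2.65 to 8.54 CPM over all libraries. Among markers of blood, liver and endothelial cells, PTPRC, CD3E, LYZ and HBB had 0 counts in all libraries, and ALB and PECAM1 stayed below 0.5 CPM.

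Some of these promoters carry known elements of the response. The ER stress response element (ERSE), CCAAT followed by any 9 bases and CCACG, which ATF6 binds together with NF-Y, was searched on both strands of windows from 250 bases before to 50 after each RefSeq start site. It was present in 8 of the 35 member genes with a window (22.9%), against 25 of all 27305 genes with a window (0.0916%). The related ERSE-II, ATTGG followed by any 1 base and CCACG, was present in 3 further members (8.57%), against 19 of all genes (0.0696%). The members were listed as ER folding and response genes, and these are known elements of that response. Their higher shares are therefore not independent of how the members were chosen. These elements are shown with 6 flanking bases on either side, 5′ to 3′ in the direction of the element, and the capitals mark the fixed letters (RefSeq, GRCh38.p14).
HSPA5 (chr9:125241385-125241415, minus strand): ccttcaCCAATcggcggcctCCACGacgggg
HSP90B1 distal (chr12:103930210-103930240, plus strand): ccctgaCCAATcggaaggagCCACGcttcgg
HSP90B1 proximal (chr12:103930315-103930345, minus strand): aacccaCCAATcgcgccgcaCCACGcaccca
CALR (chr19:12938378-12938408, minus strand): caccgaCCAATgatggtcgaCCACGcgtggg
CANX (chr5:179698772-179698802, plus strand): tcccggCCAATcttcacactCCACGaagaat
CRELD2 (chr22:49918548-49918578, minus strand): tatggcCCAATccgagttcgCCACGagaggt
PDIA6 (chr2:10812847-10812877, minus strand): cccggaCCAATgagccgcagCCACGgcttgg
ERO1B (chr1:236282177-236282207, plus strand): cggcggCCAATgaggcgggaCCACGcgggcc
XBP1 (chr22:28800597-28800627, minus strand): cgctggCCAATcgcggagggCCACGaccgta
HYOU1 ERSE-II, proximal (chr11:119057268-119057290, plus strand): gtactcATTGGaCCACGtcccag
HYOU1 ERSE-II, distal (chr11:119057374-119057396, plus strand): cctgggATTGGaCCACGtcacgg
HERPUD1 ERSE-II (chr16:56932019-56932041, plus strand): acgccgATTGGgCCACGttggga
SDF2L1 ERSE-II (chr22:21642108-21642130, minus strand): gttttgATTGGtCCACGcttccg

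The whole window of HSPA5, the best known target of the response, is given because its single exact ERSE lies close to the start site, 66 to 48 bases before it.
HSPA5 window (chr9:125241294-125241593, minus strand): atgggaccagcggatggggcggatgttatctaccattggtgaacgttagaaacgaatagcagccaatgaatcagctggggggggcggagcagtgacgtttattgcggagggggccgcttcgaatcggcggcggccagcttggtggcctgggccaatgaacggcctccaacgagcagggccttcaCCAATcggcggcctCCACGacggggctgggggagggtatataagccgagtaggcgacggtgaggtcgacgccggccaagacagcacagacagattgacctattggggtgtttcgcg
Another motif, TGACGTGG, the core of the element that spliced XBP1 binds, was found in DNAJC10 and HYOU1, 2 of 35 member genes (5.71%), against 253 of all genes (0.927%). In HYOU1 its letters overlap the distal ERSE-II. A match describes letters in this window, not binding.

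None of the 38 members passed the test between 100Q and 0Q, with adjusted p of at least 0.987 for each (edgeR quasi-likelihood test, Benjamini-Hochberg over 14905 genes, of which 0.0134% passed). DESeq2 and limma-voom also called 0 members, with 11 and 1 of the 14905 genes called. At an unadjusted p under 0.05 they gave 0 and 1 member, and their shares over all tested genes at that limit were not counted. At an unadjusted p under 0.05 by edgeR there were 2 members (5.26%), HSPA13 and EDEM3, both lower in 100Q. Of all tested genes 4.72% met that limit, 2.49% higher and 2.23% lower. None was lower at that limit when 100Q replicate 1, 100Q replicate 2 or 0Q replicate 3 was left out, and 1 (EDEM3) was when 100Q replicate 3 was. The libraries of the groups did not overlap for 4 members (10.5%), 1 higher and 3 lower, against 10.6% of all tested genes, 5.39% higher and 5.2% lower. Both shares lay near those of all genes.

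Log2 fold changes, 100Q minus 0Q, ran from -0.37 to 0.50 over the members. Their median was 0.010, against -0.0027 over all tested genes, with 16 of 38 negative (42.1%) against 50.6% of all tested genes. Leaving out 100Q replicate 2 gave a median of -0.0020 and leaving out 100Q replicate 1 gave -0.0079. These values are shares of the RNA sequenced in bulk, in which a lower level in each cell and fewer cells with the transcript cannot be told apart.

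For most members the interval was narrow, given the spread among these libraries, which may be technical. Each interval is for 1 gene on its own, not for the members jointly. The 95% interval of 33 of 38 members (86.8%) lay within 1.5-fold in either direction, against 58.2% of all tested genes, and the median SE was 0.12 over members and 0.16 over all tested genes. The share was not particular to the members, since 51 of 57 other ER genes, described below, also lay within 1.5-fold (89.5%). The 5 members with wider intervals were DNAJB9, SDF2L1, SIL1, EDEM2 and DERL3. DERL3, at 13 to 93 counts per library, had the widest, from a level 0.727 times to 2.74 times that of 0Q.

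**Figure D1:**
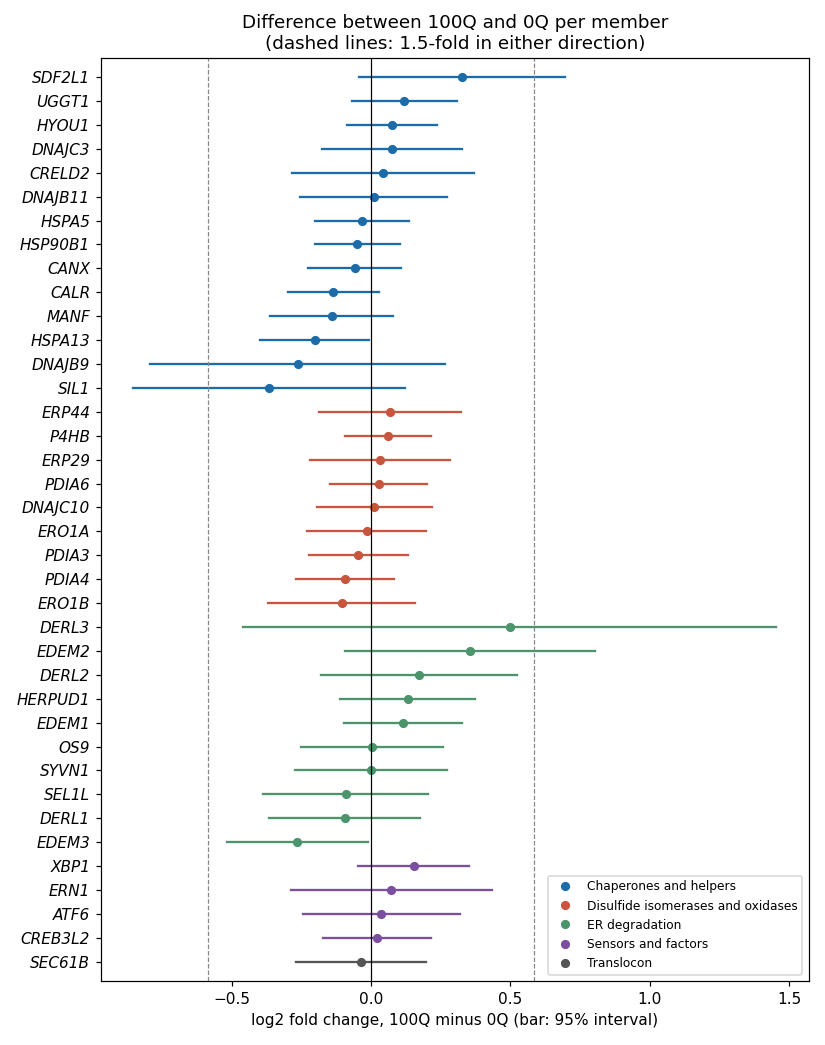
Log2 fold change of each of the 38 members, 100Q minus 0Q (points), with its 95% interval (bars), grouped by role. All intervals but those of HSPA13 and EDEM3 include 0, and 33 lie between the dashed lines at 1.5-fold.

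Levels between genes were compared per kilobase of the GENCODE canonical transcript. CALR, a lectin chaperone that binds calcium, had the highest level, 266 ± 17.1 CPM per kb in 100Q and 292 ± 16.5 CPM per kb in 0Q (SD, n = 3 each). HSP90B1, P4HB, CANX and HSPA5 followed, with 143 to 223 CPM per kb in 100Q and 146 to 231 CPM per kb in 0Q. The sensors were far lower, with ATF6 at 6.93 ± 0.643 CPM per kb in 100Q and 6.81 ± 1.07 CPM per kb in 0Q, and ERN1 at 2.74 ± 0.279 and 2.62 ± 0.352 CPM per kb in the same order. Their target XBP1 was at 74.1 ± 3.08 CPM per kb in 100Q and 66.8 ± 7.07 CPM per kb in 0Q. The lowest member was DERL3, with 1.97 ± 1.00 CPM per kb in 100Q and 1.41 ± 0.35 CPM per kb in 0Q. The canonical transcript of DNAJC10 is 20144 bases long, so its level per kilobase is low for its counts.

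**Figure D2:**
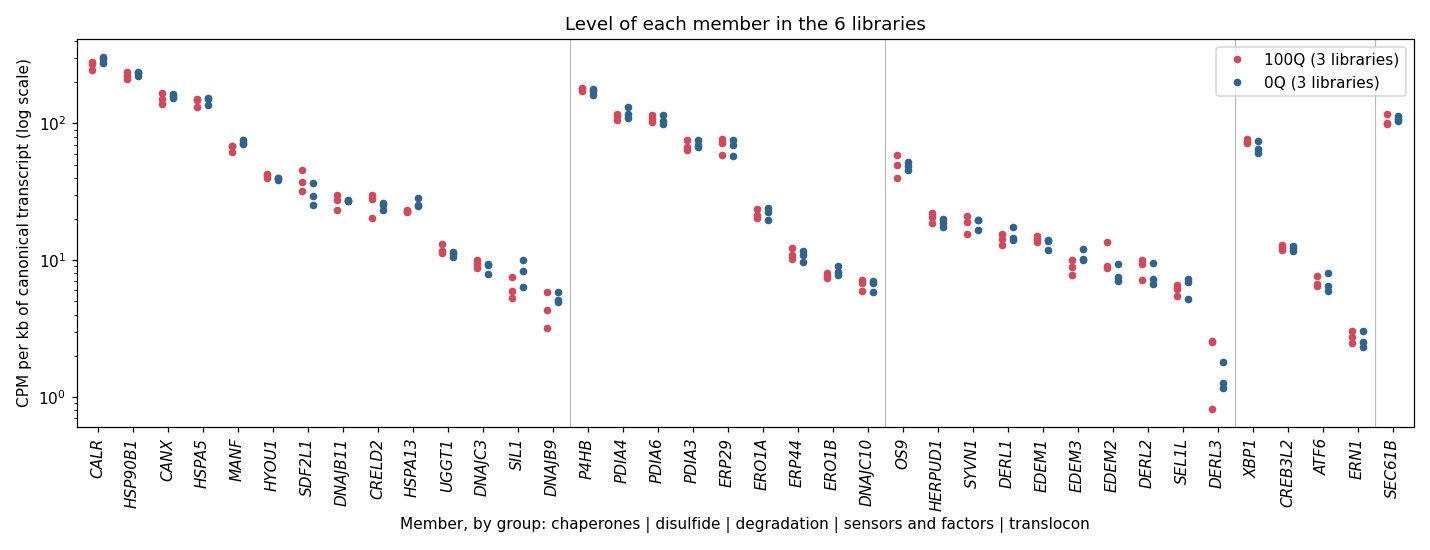
Level of each member in each library, in CPM per kilobase of the canonical transcript on a log scale, with 100Q (red) left of 0Q (blue) and members sorted by level within their group. Mean levels run from CALR, at 266 CPM per kb in 100Q and 292 CPM per kb in 0Q, down to DERL3, at 1.97 CPM per kb in 100Q and 1.41 CPM per kb in 0Q.

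The chaperones hold unfolded chains, and HSPA5 (BiP), the ER member of the Hsp70 family (chr9:125234853-125241382), also keeps the sensors inactive. HSPA5 had 589.6, 578 and 514 CPM in 100Q replicates 1 to 3, against 599, 588 and 530.0 CPM in 0Q replicates 1 to 3. The groups overlapped, and the log2 fold change was -0.032 with a 95% interval from -0.20 to 0.14, which leaves a level in 100Q of 0.870 to 1.10 times that of 0Q. HSP90B1 (GRP94), the ER member of the Hsp90 family, had a log2 fold change of -0.050 ± 0.072 (SE). Both carry an exact ERSE in the promoter, as shown above.

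CANX, the membrane-bound partner of CALR (chr5:179678628-179731641), was the member with the most counts, at 818, 684 and 741 CPM in 100Q, against 749.6, 783 and 806 CPM in 0Q. CALR (chr19:12938578-12944489) had 519.9, 530.1 and 469 CPM in 100Q, against 586, 558 and 524 CPM in 0Q. The libraries of CANX overlapped widely and those of CALR overlapped only between the highest of 100Q and the lowest of 0Q, and CALR had a log2 fold change of -0.14 ± 0.077 (SE). UGGT1, which marks unfinished glycoproteins for another round with these lectins, had 0.12 ± 0.088.

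HSPA13, an Hsp70-like protein of microsomes (chr21:14371115-14383484), had the smallest p of the chaperones. It had 89.0, 91.2 and 89.8 CPM in 100Q, against 99.7, 98.0 and 113 CPM in 0Q. All 3 libraries of 100Q lay below those of 0Q, with a log2 difference of -0.20 ± 0.092 (SE). It did not pass (unadjusted p = 0.0438, edgeR quasi-likelihood, Benjamini-Hochberg adjusted p = 0.987). With the GC and length correction its log2 fold change was -0.13, a shift of over 1.5 times. Without 0Q replicate 3, its highest library, it was -0.14.

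SDF2L1, a small partner of BiP and its J proteins (chr22:21642302-21644299), had 26.6, 37.9 and 30.6 CPM in 100Q, against 30.2, 21.0 and 24.3 CPM in 0Q. The groups overlapped, with a log2 fold change of 0.33 ± 0.17 (SE) and an unadjusted p of 0.0791 (edgeR quasi-likelihood). The Hsp70 relative HYOU1 and the secreted factor MANF were chosen after their values were seen, as the other chaperones whose groups did not overlap. HYOU1 had 194, 196 and 184 CPM in 100Q, against 183, 177 and 184 CPM in 0Q, a gap that closed with RLE normalization and DESeq2 size factors. MANF had 61.6, 62.3 and 56.2 CPM in 100Q, against 69.1, 64.8 and 64.1 CPM in 0Q. Neither passed the test, at log2 fold changes of 0.074 ± 0.076 and -0.14 ± 0.10 (SE).

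The J proteins pass clients to BiP and set its ATPase cycle. DNAJB11 and DNAJC3 had log2 fold changes of 0.0084 ± 0.12 and 0.074 ± 0.12 (SE), and DNAJB9, which also binds IRE1, had -0.26 ± 0.25 at only 7.70 to 14.1 CPM. The nucleotide exchange factor SIL1 had the lowest log2 fold change of all members, -0.37 ± 0.23 (SE), with 11.2, 10.0 and 14.3 CPM in 100Q, against 18.8, 12.1 and 15.8 CPM in 0Q, and the groups overlapped. CRELD2, an ER protein induced by stress, had 0.043 ± 0.15. As a group the 14 chaperones had a median log2 fold change of -0.041, with 6 positive and 8 negative.

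Disulfide isomerases form and shuffle cysteine bonds, and the ERO1 oxidases recharge them. Their log2 fold changes lay between -0.11 and 0.067 over 9 members, with a median of 0.012 and 5 positive. None had an unadjusted p under 0.05, and all 9 intervals lay within 1.5-fold. P4HB (PDI; chr17:81843159-81860856) had 436, 445 and 418 CPM in 100Q, against 434, 420.2 and 392 CPM in 0Q, and the groups overlapped. PDIA4 (chr7:149003062-149028662), with several thioredoxin domains, had 323, 314 and 291 CPM in 100Q, against 362, 325 and 303 CPM in 0Q, also overlapping.

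ERO1B (chr1:236214681-236282019) had 37.9, 36.9 and 40.3 CPM in 100Q, against 38.7, 45.2 and 40.5 CPM in 0Q, a log2 fold change of -0.11 ± 0.12 (SE). Its paralog ERO1A, which is also induced by hypoxia, had -0.017 ± 0.10. PDIA3, the isomerase that works with CALR and CANX, had -0.046 ± 0.083, PDIA6 had 0.027 ± 0.082, and DNAJC10, a reductase for degradation clients, had 0.012 ± 0.097. ERP29, which lacks the active-site cysteines, had 0.030 ± 0.12, and ERP44, which retains clients in the early secretory pathway, had 0.067 ± 0.12.

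Degradation genes recognise misfolded glycoproteins (EDEM1, EDEM2, EDEM3, OS9), move them across the membrane (DERL1, DERL2, DERL3) and tag them with ubiquitin (SYVN1, with SEL1L and HERPUD1). EDEM3, a mannosidase (chr1:184690237-184754907), had 52.8, 61.0 and 68.0 CPM in 100Q, against 69.4, 68.8 and 81.8 CPM in 0Q. All libraries of 100Q lay below those of 0Q, the closest by less than 1 CPM. The log2 fold change was -0.27 ± 0.12 (SE), and the gene did not pass (unadjusted p = 0.0412, edgeR quasi-likelihood, Benjamini-Hochberg adjusted p = 0.987). Leaving out 0Q replicate 3 or 100Q replicate 1 gave -0.18 for each.

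EDEM2 (chr20:35115364-35147336), which makes the first mannose cut, went the other way, with 16.9, 25.4 and 16.5 CPM in 100Q, against 14.2, 17.6 and 13.3 CPM in 0Q. The groups overlapped, with a log2 fold change of 0.35 ± 0.21 (SE). EDEM1 had 0.11 ± 0.10. HERPUD1 (chr16:56932142-56944864), a membrane scaffold and sensitive target of the response, had 53.5, 63.3 and 59.0 CPM in 100Q, against 49.4, 53.6 and 57.2 CPM in 0Q, and a log2 fold change of 0.13 ± 0.11.

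OS9 (chr12:57693841-57728342), a lectin, had 134, 158 and 107 CPM in 100Q, against 141, 130.4 and 122 CPM in 0Q, with 100Q libraries on both sides of all those of 0Q. SYVN1 (HRD1), the ubiquitin ligase, and its partner SEL1L had log2 fold changes of 0.00037 ± 0.13 and -0.092 ± 0.14 (SE). DERL1, DERL2 and DERL3 had -0.096 ± 0.13, 0.17 ± 0.16 and 0.50 ± 0.45. Of the exonic bases of DERL3, 77.0% are also exonic in SMARCB1 on the opposite strand, and the use of strand in counting is not stated, so its counts are uncertain. The same holds in part for PDIA6 (25.2%, ATP6V1C2) and ERP29 (17.7%), and OS9 shares 15.9% with AGAP2-AS1 on its own strand. The group of 10 had a median of 0.058, with 7 positive. In the separate fit with the stricter filter (mean count 50), which removed DERL3, the median was 0.0077.

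The 4 sensors and transcription factors had positive log2 fold changes, from 0.021 to 0.15, though CREB3L2 was at -0.0040 with the GC and length correction and ATF6, ERN1 and CREB3L2 turned negative when single libraries were left out. Their median was 0.054, and none passed. XBP1 (chr22:28794555-28800597), the factor whose messenger RNA IRE1 splices, had 128, 132 and 139 CPM in 100Q, against 108, 133 and 117 CPM in 0Q. Only 0Q replicate 2 reached the range of 100Q. The difference was 0.15 ± 0.093 on the log2 scale (SE; 95% interval -0.047 to 0.35). Gene counts do not separate spliced from unspliced XBP1.

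ERN1 (chr17:64039080-64130819), the sensor IRE1, had 19.4, 21.6 and 23.9 CPM in 100Q, against 20.0, 23.8 and 18.4 CPM in 0Q. ATF6 (chr1:161766298-161977574), which is cut in the Golgi to release a transcription factor, had 49.9, 48.2 and 57.2 CPM in 100Q, against 44.4, 48.3 and 59.8 CPM in 0Q. The groups overlapped widely for ERN1, and for ATF6 the range of 100Q lay within that of 0Q. Log2 fold changes were 0.072 ± 0.17 for ERN1 and 0.036 ± 0.13 for ATF6 (SE). CREB3L2, a related membrane-bound factor, had 0.021 ± 0.091.

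SEC61B (chr9:99222064-99230615), a small subunit of the channel, had 56.2, 66.5 and 56.9 CPM in 100Q, against 64.1, 60.4 and 58.8 CPM in 0Q. Its log2 fold change was -0.036 with an interval from -0.27 to 0.20.

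Summed levels also overlapped. The chaperones summed to 3094 ± 154 CPM (SD) in 100Q and 3203 ± 43.2 CPM (SD) in 0Q, with n = 3 each, and with 100Q replicate 1 above all libraries of 0Q and replicates 2 and 3 below them. The disulfide group summed to 1693 ± 52.1 CPM in 100Q and 1697 ± 66.4 CPM in 0Q. Degradation genes summed to 517, 592 and 546 CPM in 100Q, against 537, 548 and 558 CPM in 0Q. The sensors and factors summed to 298 ± 8.02 CPM in 100Q and 282 ± 20.5 CPM in 0Q. The ranges of the groups overlapped in all 4.

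**Figure D3:**
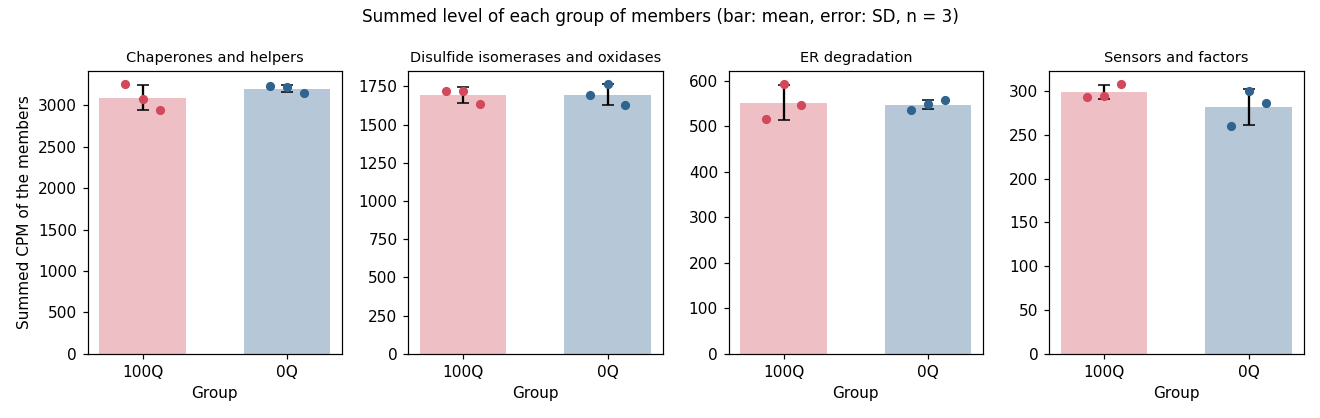
Summed CPM of the members of 4 groups in each library (points), with the mean (bars) and SD (n = 3), 100Q left of 0Q. The ranges of the libraries overlap in all 4 groups, and the means are closest in the disulfide group (1693 CPM for 100Q, 1697 CPM for 0Q).

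The 11 members with ERSE or ERSE-II letters were set beside the 24 members with a window and neither. Their median log2 fold change was 0.027, with 6 positive and 5 negative and 0 at an unadjusted p under 0.05 (edgeR quasi-likelihood). The other 24 had 0.010, with 15 positive. The 11 ran from -0.14 (CALR) to 0.33 (SDF2L1). Their median was -0.072 with 100Q replicate 1 left out, 0.068 with 100Q replicate 3 left out and -0.041 with limma-voom.

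The codons that queuosine tRNAs read (TAC and TAT, CAC and CAT, AAC and AAT, GAC and GAT) are frequent in these genes, with a median of 15.2% of codons, against 13.8% over tested protein-coding genes. CALR had the highest share, 92 of 417 codons (22.1%), with aspartate alone at 13.2%. SEC61B had the lowest, 6 of 96 (6.25%). The 30 codons of each with the most such codons are shown from the GENCODE coding sequences, with those codons in capitals.
CALR codons 281 to 310 (chr19:12940768-12940857, plus strand): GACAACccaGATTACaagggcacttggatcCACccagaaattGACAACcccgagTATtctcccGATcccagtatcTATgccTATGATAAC
SEC61B codons 33 to 62, across an intron (chr9:99222639-99227983, plus strand): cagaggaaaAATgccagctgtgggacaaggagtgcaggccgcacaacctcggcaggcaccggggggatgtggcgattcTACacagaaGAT
The CALR stretch holds 13 of them and that of SEC61B holds 3. The log2 fold changes of these genes, given above, were -0.14 and -0.036.

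The C-ending share of these codons ran from 24.5% in DNAJC10 to 83.3% in CRELD2. Over the 38 members its correlation with the log2 fold change was r = 0.46 (Spearman 0.33), given as a description across genes that share the same 6 libraries. Over 12727 tested protein-coding genes it was r = 0.097 (Spearman 0.14). The median SE was 0.12 over members and 0.16 over all tested genes, so these values of r are not like for like. The correlation was not computed for other ER genes, and it is not read as particular to the members. Of the 19 members with the higher C-ending share 14 had positive log2 fold changes (median 0.060), against 8 of the 19 with the lower share (median -0.032). The C-ending share followed the GC content of the transcript (r = 0.83 over members). With the GC and length correction the correlation with the fold change was r = 0.37 (Spearman 0.22). With the stricter filter on low counts, which removed DERL3, r was 0.37 without that correction. Leaving out single libraries moved the uncorrected r to 0.26 (100Q replicate 2), 0.27 (0Q replicate 3) and 0.63 (0Q replicate 1).

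**Figure D4:**
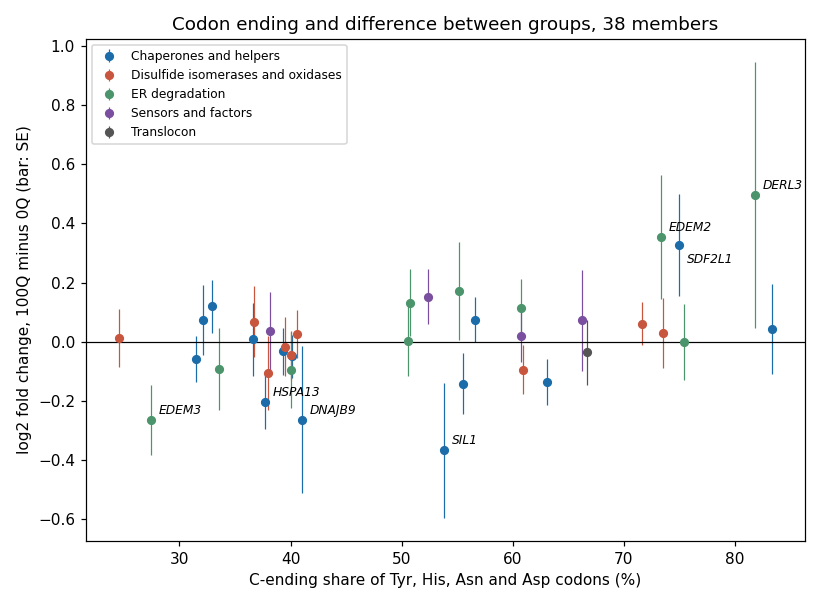
C-ending share of the tyrosine, histidine, asparagine and aspartate codons of each member (horizontal axis, %) against its log2 fold change, 100Q minus 0Q (points), with SE (bars), coloured by group. DERL3, EDEM2 and SDF2L1 lie at the upper right and EDEM3 at the lower left, and the SE bars of DERL3 are the longest. The lowest point, SIL1 (-0.37), lies at a C-ending share of 53.8%, among the 19 members with the higher share.

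Another 57 genes of ER folding, translocation, degradation and signalling, outside the 38, were also examined. None passed, 5 (8.77%) had an unadjusted p under 0.05, 3 higher and 2 lower, against 4.72% of all tested genes, and their median log2 fold change was -0.031 (edgeR quasi-likelihood). There was 1 such gene, higher, when 0Q replicate 2 was left out. There were 2, both higher, when 100Q replicate 1 was left out, and 1 higher and 2 lower when 100Q replicate 2 was.

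TRIB3, a pseudokinase induced by ATF4 and CHOP downstream of the kinase PERK, had 43.5, 49.7 and 41.4 CPM in 100Q, against 29.0, 37.1 and 34.9 CPM in 0Q, and the groups did not overlap. The difference was 0.40 ± 0.14 on the log2 scale (SE; unadjusted p = 0.00971, edgeR quasi-likelihood, Benjamini-Hochberg adjusted p = 0.987). CHAC1, which degrades glutathione and is also induced through ATF4, had 17.5, 31.1 and 25.3 CPM in 100Q, against 15.1 to 18.0 CPM in 0Q, a log2 fold change of 0.55 ± 0.20 (SE). The groups of CHAC1 overlapped. PERK itself (EIF2AK3) had -0.11 ± 0.16, ATF4 had 0.0077 ± 0.078, and DDIT3, which encodes CHOP, had -0.53 ± 0.28 at 6.35 to 8.04 CPM in 100Q and 8.45 to 12.7 CPM in 0Q. All libraries of 100Q lay below those of 0Q for DDIT3, opposite in direction to TRIB3.

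Among the other lists, the translocation gene SPCS1, a subunit of signal peptidase, had 93.8, 95.4 and 93.6 CPM in 100Q, against 80.4, 80.9 and 82.2 CPM in 0Q (log2 fold change 0.22 ± 0.088, SE), and SPCS2 of the same complex had -0.15 ± 0.12. TMX1, a membrane-bound isomerase, had 77.0, 76.6 and 89.9 CPM in 100Q, against 90.3, 103 and 101 CPM in 0Q (-0.26 ± 0.10), and PRDX4, a peroxidase that feeds oxidation, had -0.14 ± 0.094. UBE2J1, a ubiquitin-conjugating enzyme of ER degradation, had -0.28 ± 0.12, and the mannosidase MAN1B1 had 0.23 ± 0.11. PRKCSH, the beta subunit of glucosidase II, had -0.18 ± 0.095, and CLGN, a relative of CANX, had -0.29 ± 0.15. None of these 8 genes passed over all genes.

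Pseudogenes of members took few counts. PDIA3P1 held 181 counts in all libraries together, 1.64% of those of PDIA3, and HSPA5P1 and HSP90B2P held 19 and 7.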

How the data were processed

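The authors deposited estimated counts for each Ensembl gene, without normalization. Per the submitters' processing notes, FastQC, STAR and RSEM were used, and per the labels the reads were aligned to hg38. Annotation, strand setting and molecular identifiers: not given in the sources used here. The estimated counts were rounded. Gene models came from GENCODE release 44, which held 62541 of 63086 identifiers without version (the other 545 took 0.129% of counts). The labels name no separate cultures, so each p-value reflects the spread among these libraries, which may be technical. Pairs of libraries within a group had a chi-square per degree of freedom of 5.22 to 13.2 and were kept as separate replicates.

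The quasi-likelihood test of edgeR 4.0.16 (R 4.3.3, TMM) was fitted to the 14905 genes kept by its default filter (minimum count 10). The threshold was a Benjamini-Hochberg adjusted p under 0.05 over all of them, and intervals are 95% intervals of that fit. Simulated data for this comparison held the same 14905 genes. Changes were planted in 50 genes for each fold, all at a mean of at least 5 CPM. Counts were drawn with the spread expected at each gene's level, without further differences in spread between genes. Recovery was 52% for 1.5-fold changes, 80% for 2-fold, 96% for 3-fold and 100% for 4-fold changes, and 5 of 169 calls were wrong. These shares may be too high for the real data, in which 2 genes passed. The members and lists were chosen with earlier results of these data known.

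Every member is named. Libraries are given one by one for the 3 members of each group with the smallest p, its member with the highest mean CPM, and HSPA5, XBP1, ERN1 and SEC61B. Each further list is represented by the 2 genes with the smallest p, beside EIF2AK3, ATF4 and DDIT3. Library values of HYOU1, MANF and SIL1, and the correlation with codon endings, were added after the values were seen. Promoter windows are from RefSeq (GRCh38.p14), codons from GENCODE canonical coding sequences, and 3 members had no window (PDIA3, DERL1 and DERL3). The alternatives comprised other scalings (RLE, library size), other filters (none, mean count 50), a replicate block, DESeq2 1.42.0, limma-voom (limma 3.58.1), a GC and length correction, and leaving out single libraries. One marker of another cell type is not reported here.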

Additional observations from a re-analysis of the deposited data

How the results depend on the processing

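No member and no further ER gene passed under any alternative. Few of all tested genes did: 71 of 28995 with no filter, 11 of 14905 with DESeq2, and 0 to 6 with 1 library left out. A count of 0 is therefore not read as a result about the members or the further ER genes. Over the 38 members and the 13 further ER genes named, 436 of 458 values under alternatives on all libraries kept their direction and 22 reversed, with a smallest adjusted p of 0.581. With 1 library left out, 265 of 306 kept it and 41 reversed, with a smallest adjusted p of 0.688. The cause of the reversals was not tested.

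With RLE normalization 0 members lay higher without overlap. With library size only 0 members were lower at an unadjusted p under 0.05, 3 lay higher without overlap, 1 further ER gene was lower at that limit, and ERO1A was at 0.0031. With no filter SYVN1 was at -0.0076, OS9 at -0.0059 and ATF4 at -0.0019. DESeq2 gave 0 members lower at that limit, 0 higher without overlap, and SYVN1 at -0.0012. With limma-voom 1 member was lower at that limit, the median of members with ERSE or ERSE-II letters was -0.041, CRELD2 was at -0.042, ERP29 at -0.0060, ERO1A at 0.0025, OS9 at -0.059 and ATF4 at -0.0026. The GC and length correction put ERO1A at 0.030, SYVN1 at -0.022, OS9 at -0.016, CREB3L2 at -0.0040 and SEC61B at 0.025, and at an unadjusted p under 0.05 it gave EDEM3 and CALR in place of EDEM3 and HSPA13.

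The numbers of the libraries were not taken to pair them, since same-numbered libraries had correlated deviations of 0.0027, -0.032 and 0.072, and not every library correlated best with its own number. The replicate block called 0 members and put DNAJB11 at -0.0038, SYVN1 at -0.0045 and OS9 at -0.0013. The block with the GC and length correction put ERO1A at 0.035, SYVN1 at -0.032, OS9 at -0.017 and SEC61B at 0.026.

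With 1 library left out, members at an unadjusted p under 0.05 numbered 0 to 2 higher and 0 to 3 lower. Those without overlap numbered 2 to 6 higher and 4 to 7 lower, which fewer libraries make more frequent by construction. At an unadjusted p under 0.05 and for overlap, shares over all tested genes were counted for the main fit only. Counts under these and the other alternatives are therefore not read as a result about the members or the further ER genes. Further ER genes at that limit numbered 1 to 3 higher and 0 to 3 lower. The median of members with ERSE or ERSE-II letters ran from -0.072 to 0.068. Log2 fold changes ran from -0.085 to 0.029 for HSPA5, -0.077 to 0.091 for DNAJB11, -0.074 to 0.21 for CRELD2, -0.11 to 0.0064 for PDIA3, -0.022 to 0.083 for PDIA6 and -0.075 to 0.15 for ERP29. They ran from -0.019 to 0.13 for ERP44, -0.10 to 0.049 for ERO1A, -0.069 to 0.072 for DNAJC10, -0.12 to 0.11 for SYVN1, -0.17 to 0.0038 for DERL1 and -0.14 to 0.15 for OS9. They ran from -0.053 to 0.17 for ATF6, -0.016 to 0.18 for ERN1, -0.011 to 0.059 for CREB3L2, -0.11 to 0.0036 for SEC61B and -0.059 to 0.056 for ATF4. DERL3 had the fewest counts of the members and the widest interval, and the part of depth in that width was not tested.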
